A study of Homo sapiens with 13 samples.

Results

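The fatty acid-binding proteins (FABPs) and the cellular retinoic acid-binding proteins (CRABPs) are small intracellular proteins that each hold a lipid in a barrel-shaped pocket. Transcripts of 7 of these carriers, *FABP3*, *FABP4*, *FABP5*, *FABP6*, *FABP7*, *CRABP1* and *CRABP2*, were followed among the 56831 genes listed for 2 SCLC cell lines. The genes were chosen by symbol, and *FABP7* was chosen from its large rise in treated H146, so its values in that line are a description and carry no test. H82 is an established line of the SCLC-N subtype and H146 one of the SCLC-A subtype, and both were labelled wild type. Each line was either left untreated, with 3 libraries per line, or given FHD-286, a dual inhibitor of the SMARCA2 and SMARCA4 ATPases of the BAF chromatin remodeling complexes, at 100 nM for 14 days with regular drug renewal, with 3 libraries of H82 and 4 of H146. The comparison asks how the carriers' transcripts differ between inhibited and untreated cells of each line. No source states that the libraries of a group came from separate cultures, so *p* values measure the spread between these libraries, which may be technical.

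Most FABPs take up long-chain fatty acids and carry them to membranes, mitochondria, lipid droplets or the nucleus, where they can hand them to PPAR receptors. The CRABPs do the same for retinoic acid. CRABP2 passes it to the retinoic acid receptors, whereas CRABP1 keeps it in the cytoplasm near the CYP26 enzymes that degrade it. Each carrier is known for a home tissue. FABP3 is the form of heart and muscle, FABP4 that of fat cells, macrophages and endothelium, FABP5 that of epidermis and many epithelia, FABP6 the bile acid carrier of the ileum, and FABP7 the form of radial glia and astrocytes in the brain.

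The sequences just upstream of the genes whose transcripts stood highest or moved most are shown to place the results in the genome. They are RefSeq promoter windows of GRCh38.p14 from 250 bases before to 50 bases after the transcription start, of which 5 of the 7 genes had an entry. Capitals mark matches, on either strand, to 6 short motifs. These were the TATA box core TATAAA, the CCAAT box, the GC box core with letters GGGCGG, the nuclear receptor half-site written AGGTCA, the RBPJ core TGGGAA and an E-box of the NEUROD1 type, spelled CAGATG. The *FABP7* window lies on the plus strand at chr6:122779466-122779765, the *CRABP2* window on the minus strand at chr1:156705735-156706034, and the *FABP6* window on the plus strand at chr5:160229256-160229555.
FABP7: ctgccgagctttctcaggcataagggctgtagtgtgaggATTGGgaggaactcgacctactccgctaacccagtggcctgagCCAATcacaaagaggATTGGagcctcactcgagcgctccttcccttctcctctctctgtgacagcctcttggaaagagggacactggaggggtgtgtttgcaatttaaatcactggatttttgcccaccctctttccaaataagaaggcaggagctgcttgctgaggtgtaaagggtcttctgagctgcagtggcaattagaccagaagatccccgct
CRABP2: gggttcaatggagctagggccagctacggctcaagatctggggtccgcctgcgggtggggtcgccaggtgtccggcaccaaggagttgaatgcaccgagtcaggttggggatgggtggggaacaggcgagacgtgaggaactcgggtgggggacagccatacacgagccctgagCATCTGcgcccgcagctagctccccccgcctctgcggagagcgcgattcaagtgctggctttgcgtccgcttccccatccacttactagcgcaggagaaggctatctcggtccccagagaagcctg
FABP6: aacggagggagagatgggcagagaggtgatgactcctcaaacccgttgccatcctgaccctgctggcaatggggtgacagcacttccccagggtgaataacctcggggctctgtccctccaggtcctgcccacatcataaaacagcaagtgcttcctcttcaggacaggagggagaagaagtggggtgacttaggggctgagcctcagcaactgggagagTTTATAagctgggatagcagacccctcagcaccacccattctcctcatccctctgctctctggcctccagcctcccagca

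The *FABP7* window held 3 CCAAT matches, the first bases of which lay 211, 168 and 153 bases before the start, and 34.6% of all 35116 promoter windows held at least 1. The *CRABP2* window held 1 E-box match, on the opposite strand, 76 bases before the start, a motif found in 14.7% of all windows. The *FABP6* window held 1 TATA match on the opposite strand, 30 bases before the start, against 11.5% of all windows. *CRABP1* had 1 GC box match and *FABP3* had none of the 6 motifs. GC content was 52.7% for *FABP7*, 57.7% for *FABP6*, 64.0% for *CRABP2*, 68.0% for *FABP3* and 70.3% for *CRABP1*, where the median of all windows was 58.7%. The windows of *FABP7* and *FABP6* held 6 and 3 CpG dinucleotides, and those of *FABP3*, *CRABP2* and *CRABP1* held 17, 20 and 25, against a median of 14. These are descriptions of letters in a window and not of bound sites. In GENCODE release 44 all 7 genes are protein-coding, with 4 exons in the canonical transcript. The *FABP3* and *FABP6* windows start inside the longer gene spans that GENCODE gives, so other starts are annotated for both.

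Values are in TPM, a unit that corrects reads for transcript length and gives every library the same total, so levels of different genes can be compared within a library. It holds no read numbers. limma was run per line on log2(TPM + 1). A gene was tested where 3 or more libraries of the line reached 1 TPM, and *p* values were two-sided and adjusted by the Benjamini-Hochberg method over all genes tested. Fold changes are on the log2(TPM + 1) scale, which understates the change of low genes. The median gene changed by -0.56 in H82 and by 0.25 in H146. Of the genes called, 77.7% were lower in treated H82 and 32.3% in treated H146, and after scaling by the median of ratios these shares were 57.55% and 54.1%. The share of TPM on mitochondrial genes was 22.1% to 24.1% in H82 before and 12.3% to 14.9% after treatment, and in H146 7.56% to 8.86% before and 3.82% to 11.4% after. The summed TPM of 8 neuroendocrine markers was 1128 to 1609 in H82 and 2750 to 3941 in H146, but that sum hides its parts. In H82 *UCHL1* was at 384 to 430 TPM untreated and 808 to 1053 TPM treated. *SYP* was at 193 to 212 TPM untreated and 31.5 to 58.1 TPM treated, and *CHGA* at 114 to 158.5 and 14.3 to 62.5 TPM. *NEUROD1*, the marker of the SCLC-N subtype, was at 224 to 234 TPM untreated and 48.05 to 111.6 TPM treated. *INSM1* was higher when treated, at 12.5 to 15.8 TPM untreated and 32.05, 296 and 33.95 TPM in treated replicates 1, 2 and 3. The H82 groups overlapped for *NCAM1* (51.8 to 53.7 TPM untreated and 52.5 to 71.1 TPM treated). They also overlapped for *DLL3* (89.55 to 121 and 87.35 to 159 TPM) and *CHGB* (means of 48.9 and 21.8 TPM). In H146 *NEUROD1* was at most 0.521 TPM. The groups overlapped for *SYP* (78.2 to 93.35 TPM untreated and 62.75 to 85.9 TPM treated), *CHGA* (100.2 to 134.6 and 95.1 to 134.9 TPM) and *NCAM1* (40.8 to 58.1 and 43.6 to 68.9 TPM). *CHGB* was higher when treated (70.1 to 84.15 and 194 to 284 TPM). Lower were *INSM1* (1140 to 1405 and 758 to 1018 TPM), *UCHL1* (1933 to 2105 and 1356 to 1536 TPM) and *DLL3* (63.6 to 75.3 and 43.8 to 49.8 TPM). Treated H82 replicate 2 stood apart from the other H82 libraries, with a summed Y-linked TPM of 53.6 against 4.69 and 2.80 in treated replicates 1 and 3 and at most 0.126 in the untreated ones. All 3 treated H82 libraries thus held Y-linked RNA that the untreated ones all but lacked. Which cells it came from was not tested, and the treated H82 values are those of the libraries as labelled. Over 8374 expressed genes it was treated replicate 1 that differed most, with a median absolute log2 difference of 0.519 and 0.526 from replicates 2 and 3, which differed by 0.128 from each other. In treated H146, over 10294 expressed genes, replicates 3 and 4 differed by 0.0921 and the other pairs by 0.227 to 0.435. As these are bulk libraries, fewer cells of a type and less RNA per cell cannot be told apart.

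*CRABP2*, the carrier that delivers retinoic acid to its nuclear receptors, was the most abundant of the 7 transcripts in untreated cells of both lines and was lower after FHD-286. The gene spans 156699606 to 156705816 on the minus strand of chromosome 1 (GRCh38, as for all spans given here). In untreated H82 it stood at 812, 717 and 837 TPM, and in treated H82 at 236, 137 and 142 TPM. The groups did not overlap, and treated replicate 1 was the highest of the treated libraries. The mean was 789 ± 63.0 TPM (SD, n = 3) without and 172 ± 55.7 TPM (n = 3) with the inhibitor, or 4.6-fold lower. The log2 change was -2.24 (SE 0.24, adjusted *p* = 0.000416, limma), which lay 1.68 below that of the median gene. Without treated replicate 2 it was -2.10 (adjusted *p* = 0.00208), and it passed the test without each of the other libraries too.

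In H146 *CRABP2* started from a lower level. It stood at 68.2, 62.7 and 71.5 TPM without and at 45.9, 65.0, 42.9 and 40.9 TPM with FHD-286. Treated replicate 2 lay among the untreated libraries and the other treated libraries lay below all of them. The mean went from 67.5 ± 4.44 (n = 3) to 48.7 ± 11.1 TPM (n = 4), and the log2 change was -0.49 (SE 0.17, adjusted *p* = 0.0426), or 0.73 below the median gene. This call was close to the threshold. It was lost without untreated replicate 1, 2 or 3 or treated replicate 1, 3 or 4, with log2 changes of -0.54 to -0.41 and adjusted *p* values of 0.0762 to 0.13, and it stood at -0.63 (adjusted *p* = 0.00153) without treated replicate 2.

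*CRABP1*, the second retinoic acid carrier, was found mainly in H146. It spans 78340353 to 78348225 on the plus strand of chromosome 15. It was at 17.98, 19.1 and 13.9 TPM in untreated H146 and at 20.03, 30.9, 15.1 and 17.8 TPM in treated H146, so that the groups overlapped. The log2 change was 0.25 with a 95% interval of -0.29 to 0.79 (adjusted *p* = 0.408), and it was -0.05 with the median of ratios. In H82 the gene was listed at 0 in all 3 untreated libraries and stood at 0.722, 0.280 and 0.771 TPM in the treated ones. All treated H82 libraries were thus above the untreated ones, at a level below the 1 TPM that the filter asks for. The exact permutation test gave *p* = 0.1 (two-sided), the smallest that 3 against 3 libraries allow.

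*FABP7*, the brain form, is the gene that was picked for its rise in H146. It spans 122779716 to 122784074 on the plus strand of chromosome 6. It stood at 1.56, 1.97 and 1.70 TPM in untreated H146 and at 55.9, 66.0, 69.9 and 72.7 TPM in treated H146. The treated libraries lay close together, and each was far above every untreated one. The means were 1.74 ± 0.210 (n = 3) and 66.1 ± 7.34 TPM (n = 4), a ratio of 38.0. On the log2(TPM + 1) scale the change was 4.61 with an SE of 0.14, which ranked 4 among 19585 genes by the size of the rise, between *TXNIP* at 4.64 and *AMBN* at 4.53. With a pseudocount of 0.1 the change was 5.17. *FABP7* took 1.41% of the summed TPM of the 7 carriers in untreated H146 and 38.0% in treated H146, where it passed *CRABP2* as the most abundant of them. The sum of the other 6 was 122 ± 4.14 TPM (n = 3) without and 108 ± 11.5 TPM (n = 4) with the inhibitor.

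In H82 *FABP7* was below the filter. It stood at 0.281, 0.380 and 0.300 TPM in untreated H82 and at 1.66, 13.7 and 0.327 TPM in treated H82. Treated replicate 2 held most of the signal, replicate 1 was above the untreated libraries and replicate 3 was among them, so that the groups overlapped. The exact permutation test gave *p* = 0.2 (two-sided), where the smallest possible value was 0.1. Without replicate 2 the treated mean was 0.996 TPM, against 5.225 TPM with it and 0.321 TPM untreated.

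*FABP5*, the epidermal form and a known partner of PPARD, showed the same uneven pattern in H82. It spans 81280536 to 81284777 on the plus strand of chromosome 8, near *FABP4*, which lies on the minus strand at 81478419 to 81483236. It was listed at 0.0923, 0 and 0.0986 TPM in untreated H82 and at 0.518, 6.75 and 0.246 TPM in treated H82. The treated libraries were all above the untreated ones (exact permutation *p* = 0.1, the smallest possible, two-sided), yet 2 of them stayed below 1 TPM, and the treated mean was 2.50 TPM with and 0.382 TPM without replicate 2. That library was also high in epithelial transcripts and in *SOX2*, with *EPCAM* at 32.8 TPM, *KRT19* at 50.2, *FOXA2* at 35.7 and *SOX2* at 71.6 TPM, where replicates 1 and 3 had 3.08 and 1.11, 1.43 and 1.15, 2.62 and 1.08, and 3.99 and 1.73 TPM. The 24 radial glia and progenitor genes summed to 487 TPM in it, 240 and 436.5 TPM in replicates 1 and 3, and 746 to 769 TPM in untreated H82. This sum, with *GLUL* its largest part, hides single genes. *SOX9* (4.20 TPM, against 0.243 and 0.0648 TPM in replicates 1 and 3) and *NFIX* (4.01, against 1.25 and 0.769 TPM) were highest in replicate 2. *SLC1A3* (19.96, against 6.37 and 25.2 TPM) and *TNC* (1.195, against 0.198 and 3.03 TPM) were highest in replicate 3. The 6 epithelial markers summed to 149 TPM in treated replicate 2, against 18.3 and 10.25 TPM in treated replicates 1 and 3 and 1.57 to 3.61 TPM in untreated H82. The part of these transcripts and of the Y-linked ones in the *FABP5* and *FABP7* values of treated H82 was not tested. In H146, where *FABP7* was high in every treated library, the Y-linked sum was at most 0.877 TPM.

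**Figure D1:**
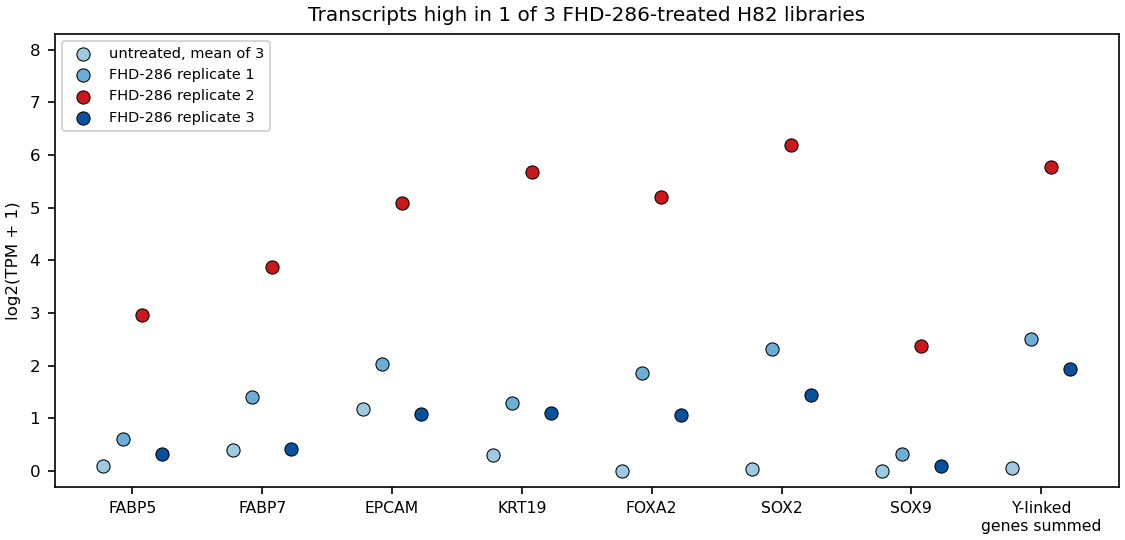
Level on the log2(TPM + 1) scale (vertical axis) of *FABP5*, *FABP7*, 5 epithelial or progenitor genes and the summed Y-linked genes in H82, with the mean of the 3 untreated libraries and each of the 3 FHD-286-treated libraries as points. Treated replicate 2 is the highest point for every item, with *FABP5* at 6.75 TPM, *FABP7* at 13.7 TPM and the Y-linked sum at 53.6 TPM.

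In H146 *FABP5* was among the more abundant carriers. It stood at 32.5, 37.7 and 27.0 TPM without and at 30.7, 22.5, 37.55 and 36.9 TPM with FHD-286, and the groups overlapped. The log2 change was -0.04 with a 95% interval of -0.49 to 0.42 (adjusted *p* = 0.892), and its sign turned without untreated replicate 2 (0.08) or treated replicate 2 (0.12). The summed TPM of the 6 epithelial markers went from 2815 to 2988 in untreated H146 to 939 to 1151 in treated H146, and the part of this in the *FABP5* value was not tested. The tables list 2 *FABP5* copies and 1 *FABP3* copy, none of which reached 1 TPM, but reads of near-identical copies may have been split by the counting, so the levels of both genes are less certain than the others.

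*FABP3*, the heart and muscle form, fell in H82 and rose in H146, with the same signs under both other scalings. It spans 31365253 to 31376850 on the minus strand of chromosome 1. In H82 it stood at 13.5, 24.3 and 17.6 TPM without and at 2.56, 11.4 and 5.97 TPM with the inhibitor. Every treated library was below every untreated one, though treated replicate 2 came close to untreated replicate 1. The means were 18.4 ± 5.46 and 6.63 ± 4.44 TPM (n = 3 each), and the log2 change was -1.49 (SE 0.45, adjusted *p* = 0.0262), or 0.93 below the median gene. The call was lost with the median of ratios (-1.05, adjusted *p* = 0.0838), with quantile normalization (-0.89, adjusted *p* = 0.118) and without the filter (-1.49, adjusted *p* = 0.0523). It was also lost without untreated replicate 2 (-1.28, adjusted *p* = 0.101), untreated replicate 3 (-1.503, adjusted *p* = 0.0664) or treated replicate 3 (-1.51, adjusted *p* = 0.0568), and without treated replicate 2 it was -1.93 (adjusted *p* = 0.00755).

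In H146 *FABP3* stood at 4.045, 3.46 and 2.72 TPM without and at 4.82, 6.64, 6.48 and 6.73 TPM with FHD-286. The treated libraries all lay above the untreated ones. The means were 3.41 ± 0.663 (n = 3) and 6.17 ± 0.906 TPM (n = 4), and the log2 change was 0.70 (SE 0.18, adjusted *p* = 0.0136), or 0.45 above the median gene. It was 0.44 with the median of ratios (adjusted *p* = 0.0568), 0.43 with quantile normalization (adjusted *p* = 0.0733) and 0.59 without untreated replicate 3 (adjusted *p* = 0.0563).

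*FABP6*, the bile acid carrier of the ileum, was the second most abundant of the 7 transcripts in H82 and hardly present in H146. Its annotated span on the plus strand of chromosome 5, 160187367 to 160238735, is the longest of the 7. It stood at 119, 116 and 122 TPM in untreated H82 and at 216.5, 130 and 131 TPM in treated H82. The treated libraries were all higher, 2 of them by little, and replicate 1 was the highest. The log2 change was 0.37 with a 95% interval of -0.14 to 0.89 (adjusted *p* = 0.18), or 0.93 above the median gene. With the median of ratios it was 0.86 and passed the test (adjusted *p* = 0.019), and with quantile normalization it was 0.21 (adjusted *p* = 0.541). In H146, where the gene was below the filter, it stood at 0.995, 1.48 and 1.80 TPM without and at 0.189, 0.2745, 0.184 and 0.344 TPM with FHD-286. All treated libraries were below all untreated ones, with means of 1.43 ± 0.406 (n = 3) and 0.248 ± 0.0763 TPM (n = 4), and the exact permutation test gave *p* = 0.0286 (two-sided), the smallest that 3 against 4 libraries allow.

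*FABP4*, the form of fat cells and macrophages, was listed at 0 in 12 of the 13 libraries and at 0.215 TPM in treated H146 replicate 4. The adipocyte markers *ADIPOQ*, *LEP*, *PLIN1* and *CIDEC* summed to at most 1.74 TPM in any library. The macrophage and leukocyte markers *PTPRC*, *CD14*, *CD68* and *CSF1R* summed to 23.96 TPM in treated H146 replicate 4, the highest of any library, and to 22.5 TPM in replicate 3, where *FABP4* was at 0. Their part in the *FABP4* value was not tested.

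**Figure D2:**
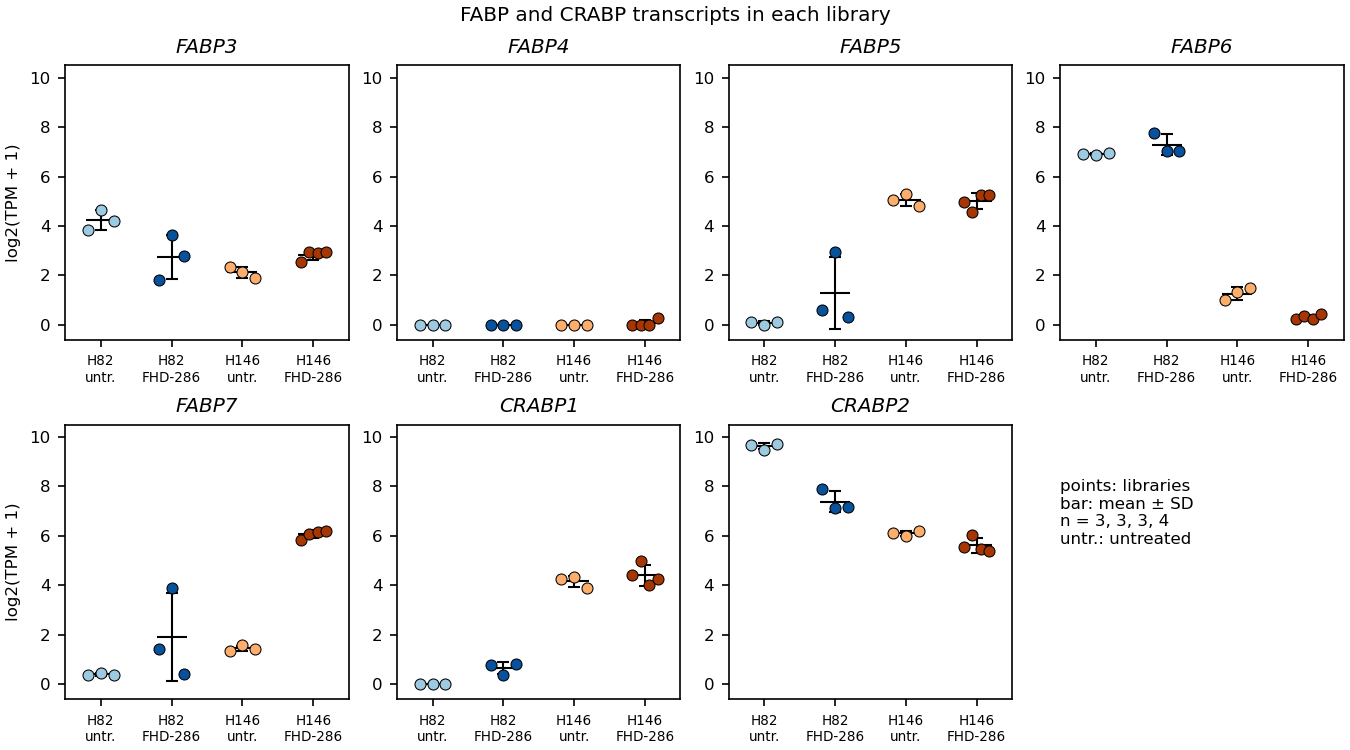
Level of each of the 7 carriers on the log2(TPM + 1) scale (vertical axis) in the libraries of untreated and FHD-286-treated (100 nM, 14 days) H82 and H146, with points for libraries and bars for the mean ± SD (n = 3, 3, 3 and 4). *CRABP2* is lower in treated H82 than in untreated H82, *FABP7* stands at 55.9 to 72.7 TPM in treated H146 against 1.56 to 1.97 TPM in untreated H146, and *FABP4* stays at or near 0 throughout.

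Counted together, 3 of the 7 genes passed the filter in H82. At an adjusted *p* under 0.05, 2 were lower (*FABP3* and *CRABP2*) and none was higher, where 45.5% of all 19770 tested genes were lower and 13.1% were higher. In H146, leaving out *FABP7*, 4 genes passed the filter, of which 1 was lower (*CRABP2*) and 1 was higher (*FABP3*), where 15.5% of 19585 tested genes were lower and 32.5% higher. The counts are few and most genes of these lines moved, so they say little about the carriers as a set. The summed TPM of the 7 transcripts went from 927 ± 61.4 to 346 ± 97.55 TPM in H82 (n = 3 each), with *CRABP2* taking 85.1% of it before and 49.65% after and *FABP6* 12.8% before and 46.0% after.

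**Figure D3:**
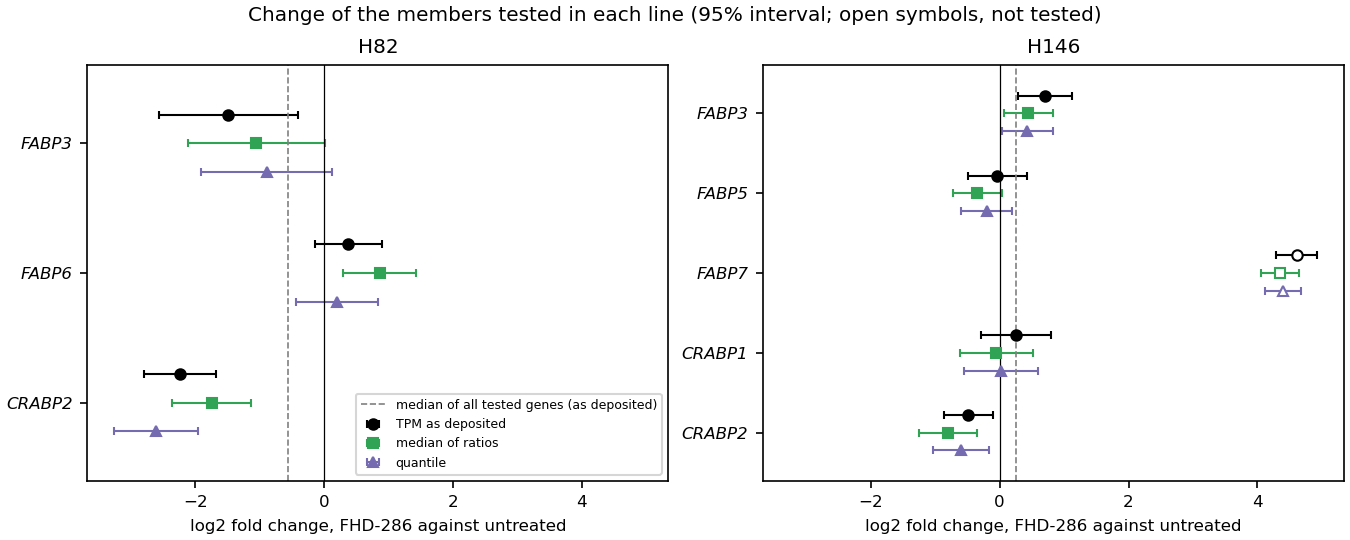
Log2 fold change, FHD-286 against untreated (horizontal axis), of the carriers that passed the filter in H82 (left) and H146 (right), from TPM as deposited, after the median of ratios and after quantile normalization, with 95% intervals and open symbols for *FABP7*, which was not tested. *CRABP2* is below 0 in both lines under all 3 scalings, and the dashed line marks the median gene at -0.56 in H82 and 0.25 in H146.

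The difference between the lines was tested for 5 genes as the interaction of line and treatment over all 13 libraries (limma), with the change in H146 minus that in H82 as the value. Of these, 3 passed, where 59.3% of 24374 tested genes did, and the median difference over all genes was 0.75. For *FABP3* the difference was 2.19 (SE 0.50, adjusted *p* = 0.00236), for *CRABP2* 1.75 (SE 0.29, adjusted *p* = 0.000295), and for *FABP6* -1.32 (SE 0.27, adjusted *p* = 0.00118). *FABP6* was below the filter in H146 and met that of the joint fit through its H82 libraries, and the size of its difference is set in part by the pseudocount (-2.50 with 0.1). It was -1.24 for *FABP5* with a 95% interval of -2.78 to 0.30 (adjusted *p* = 0.149), and -0.40 for *CRABP1* with an interval of -1.12 to 0.32 (adjusted *p* = 0.311). Both were at or near 0 TPM in untreated H82, and both passed with a pseudocount of 0.1 (-2.90 and -2.43, adjusted *p* = 0.0427 and 0.0013) and with quantile normalization (-1.88 and -1.12, adjusted *p* = 0.0482 and 0.0183). The difference of *FABP3* was 1.33 with quantile normalization (adjusted *p* = 0.0367), and that of *CRABP2* was 0.94 with the median of ratios (adjusted *p* = 0.0312). For *FABP5* it went to -0.41 without treated H82 replicate 2, and without treated H82 replicate 3 it was -1.73 and passed the test (adjusted *p* = 0.0422).

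By level, the order in untreated H82 was *CRABP2*, *FABP6*, *FABP3* and *FABP7*, and none of these neighbours had overlapping libraries. *FABP5* came next, with *CRABP1* and *FABP4* at 0. In untreated H146 the order was *CRABP2*, *FABP5*, *CRABP1*, *FABP3*, *FABP7* and *FABP6*, in which the libraries of *FABP7* and *FABP6* overlapped. In treated H82 *CRABP2* and *FABP6* led with overlapping libraries, above *FABP3*. In treated H146 *FABP7* and *CRABP2* led with overlapping libraries, followed by *FABP5* and *CRABP1*, whose libraries also overlapped, and then by *FABP3* and *FABP6*. These orders are descriptions.

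The 5 genes whose log2(TPM + 1) followed that of *FABP7* most closely over the 13 libraries were *LHX9* (Pearson r = 0.986), *HOXB8* (0.985), *CALB2* (0.973), *BCAT1* (0.968) and *SCNN1G* (0.964). The points share lines, groups and libraries, so the values describe a pattern and carry no *p*. *CALB2*, which encodes the calcium buffer calretinin, had the highest level of them, at 105.7 ± 24.95 TPM in treated H146 (n = 4) against 0.986 ± 0.519 TPM in untreated H146 (n = 3), and like *FABP7* it was highest in replicate 2 among the treated H82 libraries (2.61 TPM, against 0.842 and 0.0749 TPM). The homeobox gene *LHX9* went from 0.664 ± 0.214 to 5.69 ± 0.382 TPM in H146.

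Retinoid-binding RBPs and further FABPs gave a list of 10 further carriers. In H82 5 of them passed the filter, of which 1 was lower and 3 were higher, where 45.5% of all tested genes were lower and 13.1% higher. Of these 4 called genes, *FABP1* and *RBP5* reached the filter only through the treated libraries and *RBP3* only through the untreated ones, so they had to differ and the count supports nothing about the list. *RBP3*, which carries retinoids between the cells of the retina, went from 239.5 ± 23.5 to 0.439 ± 0.395 TPM (n = 3 each, log2 change -7.41). *RBP4*, the retinol carrier of blood plasma, went from 1.975 ± 0.941 to 69.1 ± 16.4 TPM (4.58, adjusted *p* = 0.000109). *FABP1*, the liver form, was listed at 0 in all untreated H82 libraries and at 16.0, 2.19 and 16.8 TPM in the treated ones, so that it was low in the library where *FABP5* and *FABP7* were high. *RBP7* was at 189.5 ± 15.65 and 191.8 ± 9.65 TPM.

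In H146 4 of these 10 passed the filter, with a median of -0.01, where the median gene changed by 0.25. *RBP4* alone passed the test, so that 25.0% were higher, where 15.5% of all tested genes were lower and 32.5% higher. *RBP4* rose in H146 from 4.06 ± 0.334 to 6.04 ± 0.827 TPM (0.47, adjusted *p* = 0.0402), a call that was lost under the median of ratios (0.21, adjusted *p* = 0.335) and quantile normalization (0.20, adjusted *p* = 0.339), and without any library but treated replicate 4, at adjusted *p* values of 0.0527 to 0.14.

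The retinoid pathway was described by 31 genes for uptake, synthesis, breakdown and reception of retinoic acid, the ligand that the CRABPs carry. In H82 19 passed the filter, 4 were lower and 11 higher, against 45.5% lower and 13.1% higher among all tested genes. Of the 15 called, *ALDH1A1*, *BCO1*, *DHRS3* and *RXRA* reached the filter only through the treated libraries and *RARRES1* only through the untreated ones. *TTR*, *RARG* and *ADH4* reached 1 TPM in only 1 untreated library each (1.04, 1.04 and 1.06 TPM), so they too needed their treated libraries to pass. Part of the count of higher genes was thus set by the filter. *TTR*, the plasma partner of RBP4, went from 0.769 ± 0.280 to 52.6 ± 18.7 TPM (log2 change 4.86). *ALDH1A1*, which makes retinoic acid, was at most 0.091 TPM in untreated H82 and stood at 14.9, 35.95 and 4.88 TPM in treated H82, highest in replicate 2. *BCO1*, which cleaves carotene, was higher by 3.24. *RARRES1* fell by 1.82. *TGM2*, a gene known to respond to retinoic acid, fell by 1.56 (adjusted *p* = 0.004). With quantile normalization the change of *TGM2* was -0.78 (adjusted *p* = 0.0375). *STRA6*, the cell surface receptor for RBP4, fell from 15.6 ± 1.35 to 5.46 ± 0.118 TPM (-1.36, adjusted *p* = 0.000558). With quantile normalization the change of *STRA6* was -0.68 (adjusted *p* = 0.00989).

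Of the receptors in H82, *RARG* rose by 2.26, and it needed its treated libraries to pass the filter. *RXRA*, which reached the filter only through the treated libraries, rose by 1.37. *RXRB* was higher by 0.53 (adjusted *p* = 0.0156), a call that was lost without untreated replicate 1, 2 or 3, at 0.49 to 0.55 and adjusted *p* values of 0.0563 to 0.0971. *RXRG* had a change of 0.67 (adjusted *p* = 0.0753) that passed with the median of ratios at 1.16 (adjusted *p* = 0.00769), with quantile normalization at 0.71 (adjusted *p* = 0.0126) and without treated replicate 1 at 1.002 (adjusted *p* = 0.000242). *RARA* had a change of -0.29 (adjusted *p* = 0.163), which turned to 0.18 with the median of ratios and 0.21 with quantile normalization. *RARB* was below the filter, at 0.2585, 1.16 and 0.4485 TPM in treated H82. The retinoic acid hydroxylases *CYP26A1*, *CYP26B1* and *CYP26C1* were below it too, with treated means of 0.0862 and 0.239 TPM for the first 2 and *CYP26C1* listed at 0.

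In H146 18 retinoid genes passed the filter, 2 were lower and 6 higher, a split close to the 15.5% lower and 32.5% higher of all tested genes, and 4 were lower and 4 higher after scaling by the median of ratios. The largest rise was that of *CYP26A1*, which stood at 0.714, 1.19 and 0.999 TPM without and at 20.3, 12.3, 28.1 and 30.0 TPM with FHD-286 (log2 change 3.52, SE 0.29). Only 1 of its untreated libraries reached 1 TPM, so *CYP26A1* needed its treated libraries to pass the filter. *CYP26B1* went from 3.68 ± 0.349 to 10.6 ± 3.998 TPM (1.23, adjusted *p* = 0.0105). *STRA6* fell here too, from 19.3 ± 1.43 to 9.18 ± 2.07 TPM (-1.02, adjusted *p* = 0.00263), and *BCO1* fell by 0.73 (adjusted *p* = 0.0109), a call that was lost without untreated replicate 1 (-0.69, adjusted *p* = 0.0554). *ALDH1A1* was at 416 ± 19.8 TPM untreated and 451 ± 56.1 TPM treated, with a change of 0.11 (adjusted *p* = 0.498) that turned to -0.21 with the median of ratios, and *TTR* had a change of 0.71 (adjusted *p* = 0.284), which passed without treated replicate 2 (1.13, adjusted *p* = 0.031).

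Among the receptors of H146, *RXRB* rose from 83.2 ± 6.085 to 138 ± 6.12 TPM (0.72, adjusted *p* = 0.000886). *RARG* was higher by 0.56 (adjusted *p* = 0.0311), but not past the threshold with the median of ratios (0.31, adjusted *p* = 0.191) or quantile normalization (0.28, adjusted *p* = 0.209), nor without untreated replicate 1, 2 or 3 or treated replicate 1 or 4 (0.46 to 0.62, adjusted *p* values of 0.0558 to 0.11). *RARA* had a change of -0.41 (adjusted *p* = 0.0521), which passed with the median of ratios (-0.71, adjusted *p* = 0.00809), with quantile normalization (-0.66, adjusted *p* = 0.0102) and without treated replicate 2 (-0.48, adjusted *p* = 0.0232). *RXRA*, *RXRG* and *RARB* were below the filter, with treated means of 1.65, 0.1565 and 0.444 TPM, as was *CYP26C1*, at most 0.1475 TPM in H146.

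**Figure D4:**
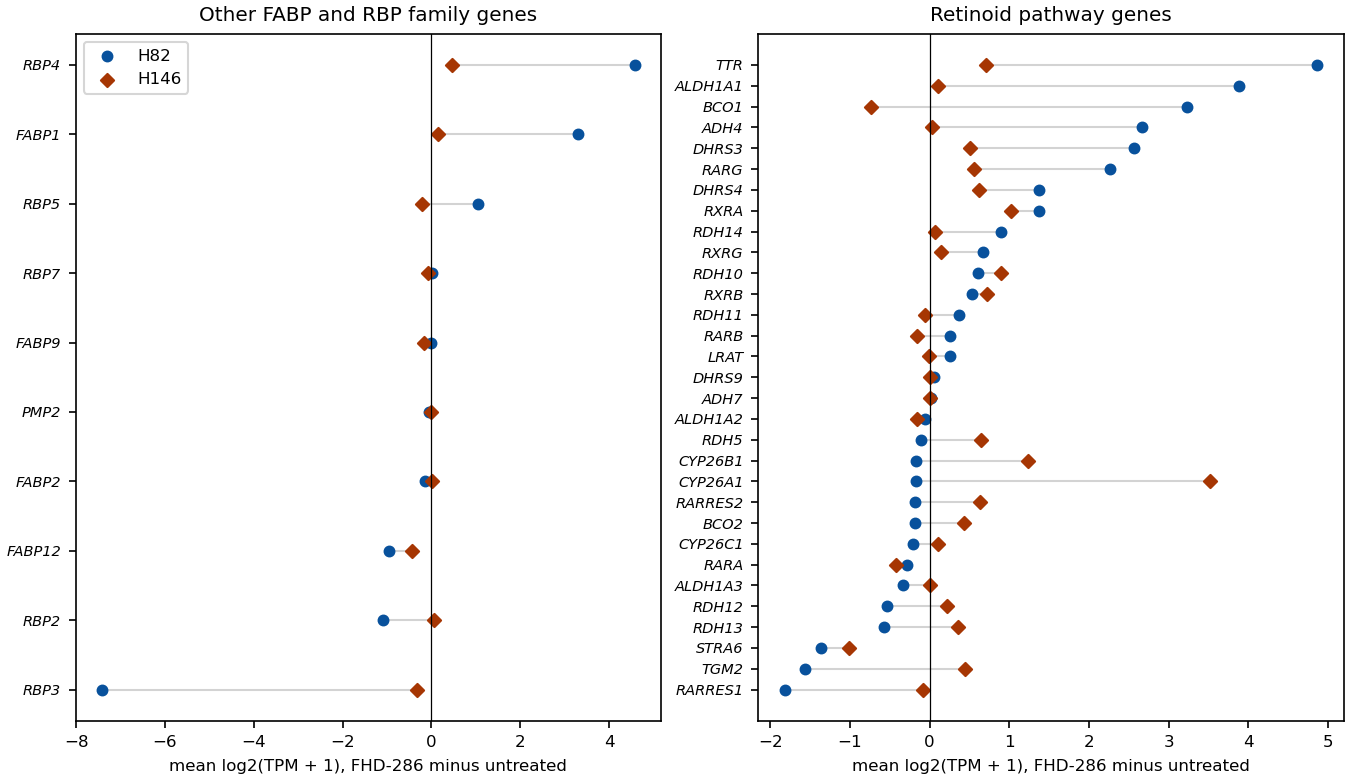
Difference in mean log2(TPM + 1), FHD-286 minus untreated (horizontal axis), of 10 other FABP and RBP family genes (left) and 31 retinoid pathway genes (right), one gene per row, with circles for H82 and diamonds for H146, including genes below the filter. *RBP4* and *TTR* lie farthest to the right in H82 at 4.58 and 4.86, *RBP3* farthest to the left at -7.41, and *CYP26A1* farthest to the right in H146 at 3.52.

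The fatty acids that FABPs carry were represented by 41 genes of uptake, activation, oxidation and storage. In H82 35 passed the filter, 10 were lower and 7 higher, where 45.5% of all tested genes were lower and 13.1% higher. After scaling by the median of ratios there were 5 lower and 15 higher genes, so the split between directions depends on the scaling. Of the 17 called in the reported fit, *CD36* reached the filter only through the treated libraries. *LPL*, which frees fatty acids from lipoproteins, fell from 113 ± 6.03 to 6.605 ± 0.921 TPM (-3.91, adjusted *p* = 4.58e-05). The activating enzyme *ACSL6* fell by 2.24, and with quantile normalization its change was -1.27. Its treated libraries stood at 1.001, 0.821 and 0.745 TPM, so it needed its untreated ones to pass the filter. *CPT1A*, the gate of mitochondrial fatty acid oxidation, rose from 4.75 ± 0.662 to 21.6 ± 5.98 TPM (1.95, adjusted *p* = 0.000646), and the lipid droplet coat gene *PLIN3* rose by 1.32 (adjusted *p* = 0.00202). Of the PPAR genes, *PPARA* fell by 2.02, and with quantile normalization its change was -1.05. Its treated libraries stood at 1.87, 0.787 and 0.965 TPM, so it too needed its untreated ones to pass the filter. *PPARG* had a change of 0.34 (adjusted *p* = 0.187), which passed with the median of ratios (0.73, adjusted *p* = 0.0208) and with quantile normalization (1.26, adjusted *p* = 0.00263). *PPARD* had a change of -0.04 (adjusted *p* = 0.859), which was 0.43 under both other scalings and 0.05 without treated replicate 2.

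In H146 33 of the 41 passed, 6 were lower and 12 higher, shares of 18.2% and 36.4% that lie near the 15.5% and 32.5% of all tested genes, and scaling by the median of ratios gave 9 lower and 8 higher genes. Of the 18 called in the reported fit, *ACADL* reached the filter only through the treated libraries and *PPARG* only through the untreated ones. *DGAT2*, which makes triglyceride, rose from 1.87 ± 0.244 to 13.55 ± 9.06 TPM (2.07, adjusted *p* = 0.0107). Its treated libraries were split, at 7.82, 3.84, 21.2 and 21.3 TPM in replicates 1, 2, 3 and 4. The fatty acid transporter *SLC27A4* rose from 15.5 ± 2.49 to 67.85 ± 20.2 TPM (2.02, adjusted *p* = 0.000465). *PPARG*, which reached the filter only through the untreated libraries, fell from 4.25 ± 0.618 to 0.424 ± 0.139 TPM (-1.88). *PPARD*, the receptor that FABP5 serves, rose from 9.02 ± 1.05 to 36.1 ± 6.18 TPM (1.88, adjusted *p* = 0.0001). *PPARA* had a change of -0.08 (adjusted *p* = 0.739). The lipase gene *LIPE* fell by 0.59 (adjusted *p* = 0.0302), a call lost without untreated replicate 1, 2 or 3 or treated replicate 1 (-0.68 to -0.53, adjusted *p* values of 0.0516 to 0.105).

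Of 11 genes of bile acid handling, the setting of *FABP6*, 4 passed the filter in H146 and 3 were lower, where 15.5% of all tested genes were. Of these 3, *NR0B2* and *ABCC3* reached the filter only through the untreated libraries. *FGF19*, the hormone by which the ileum signals bile acid uptake, fell from 88.9 ± 7.12 to 13.8 ± 6.18 TPM (-2.69, adjusted *p* = 0.000196). *NR0B2*, a repressor of bile acid synthesis, fell from 5.65 ± 1.51 to 0.382 ± 0.256 TPM (-2.26). In H82, where *FABP6* was abundant, *FGF19* and *NR0B2* were listed at 0 in the untreated libraries and only 3 of the 11 passed the filter. The bile acid transporter *SLC51A* fell by 1.34, and with quantile normalization its change was -0.35 (adjusted *p* = 0.274). Its treated H82 libraries stood at 0.632, 0.498 and 1.08 TPM, so it needed its untreated ones to pass the filter.

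*FABP7* is best known from radial glia, so 24 genes of radial glia and neural progenitors were set beside it. In H146 19 passed the filter, 7 were lower and 9 higher, where 15.5% of all tested genes were lower and 32.5% higher, and the median of ratios gave 7 lower and 5 higher genes. Of the 16 called, *VIM* and *S100B* reached the filter only through the treated libraries and *SLC1A2* only through the untreated ones. Part of the count was thus set by the filter. *HES1*, a Notch target that holds progenitors undifferentiated, rose from 6.72 ± 0.596 to 24.4 ± 14.1 TPM (1.52, adjusted *p* = 0.0188), a call lost without untreated replicate 1 or 3 (1.505 and 1.48, adjusted *p* = 0.0578 and 0.0699). In treated replicates 1, 2, 3 and 4 it stood at 16.2, 9.35, 32.25 and 39.8 TPM. *CDH2*, which encodes N-cadherin, rose by 1.27 (adjusted *p* = 0.00132). *PROM1* fell by 1.40 (adjusted *p* = 0.00164). *SLC1A2*, the glutamate transporter of astrocytes, which reached the filter only through the untreated libraries, fell by 1.20.

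In H82 14 of the 24 passed, 5 were lower and 5 higher, where 45.5% of all tested genes were lower and 13.1% higher, and with quantile normalization 5 were lower and 9 higher. Of the 10 called, *SOX2* and *NFIA* reached the filter only through the treated libraries, so part of the count was set by the filter. *VIM* rose from 7.49 ± 0.887 to 43.9 ± 0.280 TPM (2.41, adjusted *p* = 0.000108). *SOX2*, which reached the filter only through the treated libraries, was higher by 3.28, carried by 71.6 TPM in treated replicate 2 against 3.99 and 1.73 TPM in the others. It did not reach the filter once any treated library was left out, and was not past the threshold once any untreated one was (adjusted *p* values of 0.087 to 0.11). *SLC1A2* fell by 3.55 (adjusted *p* = 9.82e-05), and *NES*, which encodes the progenitor filament nestin, fell from 38.05 ± 3.05 to 2.82 ± 0.203 TPM (-3.35, adjusted *p* = 6.75e-05).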

How the data were processed

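RNA from untreated and FHD-286-treated H82 and H146 cells was sequenced by the authors, trimmed with Trim Galore 0.4.4 per the labels, mapped to hg38 with STAR and annotated with GENCODE release 28. The authors compared groups with DESeq2 and deposited TPM values, 1 table per line with 56831 genes each. Counts were not among the values used here, so no count test was run. A spreadsheet had turned 29 symbols into dates, none of them a carrier. The number of reads behind a TPM value is unknown, and the spread between libraries sets the precision.

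Analysis used limma 3.58.1 in R 4.3.3 (lmFit, eBayes with trend) on log2(TPM + 1), per line, and over all 13 libraries for the interaction. A gene was tested where 3 or more libraries of a fit reached 1 TPM, with an adjusted threshold of 0.05. Carriers below this filter were compared with exact permutation tests of the mean log2(TPM + 1). The method was tested on simulated data. Python 3.11.15, scipy 1.17.1 and matplotlib 3.10.9 served for the rest. Gene positions came from GENCODE release 44 and promoters from RefSeq.

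The carriers and the gene lists were chosen with earlier results of these data known. Genes named from a list are, per line, the 2 that rose most and the 2 that fell most among those called with no overlap between treated and untreated libraries, the RAR, RXR and PPAR genes with *CYP26A1* and *CYP26B1* whatever their change, and the 5 genes most correlated with *FABP7*. *RBP7*, *EPCAM*, *KRT19*, *FOXA2*, *SOX9*, *CYP26C1* and *RBP5* were named after their values were seen, as were *TXNIP* and *AMBN*, the neighbours of *FABP7* by rank. Fits were repeated with eBayes without trend, with each library left out, with the replicate number as a block, after quantile normalization or the median of ratios, without the filter, and with a pseudocount of 0.1. The ratio of mean TPM, and the pseudocount of 0.1 in the permutation tests, were added after seeing the data. Results for 1 gene of the carrier families are not reported here.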

Additional observations from a re-analysis of the deposited data

Results flagged for a closer look

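For 4 of the genes named, 1 of the 4 treated H146 libraries stood apart from the rest, and it was not the same library for each gene. How often this would happen by chance among the genes named was not tested. *FABP3* was lowest in replicate 1 at 4.82 TPM, against 6.48 to 6.73 TPM in the others. *FABP4* was listed at 0.215 TPM in replicate 4 and at 0 in the others. *TGM2* was highest in replicate 3 at 1.87 TPM, and *NES* in replicate 1 at 23.3 TPM.

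The response to FHD-286 differed between the lines for 3 carriers by the interaction of line and treatment (limma). So did that of 59.3% of all 24374 tested genes, with a median difference of 0.75, so the count says little about the carriers as a set. The change in H146 minus that in H82 was 2.19 on the log2 scale for *FABP3*, 1.75 for *CRABP2* and -1.32 for *FABP6*, with adjusted *p* values of 0.00236, 0.000295 and 0.00118. *FABP6* was below the filter in H146, and its difference was -2.50 with a pseudocount of 0.1. *FABP3* was lower in 3 of 3 treated H82 libraries and higher in 4 of 4 treated H146 libraries than in any untreated library of its line.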

How the results depend on the processing

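Of 1134 values recomputed under the alternatives, 1000 kept their direction and their side of the threshold, or stayed within 1.5 times or 1 SD of the reported value, and 15 changed sign. The fall of *CRABP2* in H82 passed the test under every alternative, and its fall in H146 did so under the scalings and the pseudocount of 0.1. The carriers called in H82 numbered 2, which were *CRABP2* and *FABP6* under the median of ratios, 1 after quantile normalization, and 1 to 2 with a library left out. The 2 carriers called in H146 became 1 under either other scaling and with eBayes without trend, and 0 to 2 with a library left out. Without the filter the carriers called in H82 were *CRABP2* and *CRABP1* (0.65, adjusted *p* = 0.0198, limma), the latter at 0 in every untreated H82 library. In H146 they were *FABP3* and *FABP6* (-0.95, adjusted *p* = 0.00588), and the call of *CRABP2* was lost (adjusted *p* = 0.0795). The carriers differing between the lines went from 3 to 5, with *FABP5* and *CRABP1* added, with a pseudocount of 0.1 and with quantile normalization, and to 3 to 4 with a library left out. The genes called in H82 went from 11584 to between 5967 and 13460 with a library left out, the low counts (5967 to 6127) being those without an untreated replicate. Those fits also tested fewer genes, 16364 to 16488 against 19770 in the reported fit and 19058 to 19237 without a treated replicate. The causes were not tested. Reads per library are unknown, so no detection limit can be given for the genes listed at 0.

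The signs that changed belonged to values that did not pass the test in the reported fit. With the median of ratios they were *CDH2* (0.36), *RARA* (0.18) and *PPARD* (0.43) in H82 and *CRABP1* (-0.0515) and *ALDH1A1* (-0.21) in H146. With quantile normalization they were *LIPE* (0.37), *CDH2* (0.89, adjusted *p* = 0.0157), *RARA* (0.21) and *PPARD* (0.43, adjusted *p* = 0.0482) in H82. With a library left out, the values in H82 ranged from -0.0714 to 0.825 for *SLC27A4*, from -0.16 to 0.11 for *CDH2* and from -0.16 to 0.0512 for *PPARD*, and in H146 from -0.16 to 0.12 for *FABP5*.

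The replicate numbers are no stated pairing. Same-numbered libraries deviated from their group means with correlations of -0.038 to 0.027 in H82 and -0.111 to 0.0108 in H146. With the replicate block, 2 carriers were called in H82 and 0 in H146, where *FABP3* stood at 0.66 (adjusted *p* = 0.0789) and *CRABP2* at -0.41 (adjusted *p* = 0.143), and 3 differed between the lines. At an unadjusted threshold of 0.05 the block still called 1 carrier in H146, *FABP3* (limma). Genes called went to 10958 in H82 and 7126 in H146.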

Other observations

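Several further genes that make, store or burn the carriers' lipids moved, and are named here after their values were seen. In H82, 3 enzymes of retinol metabolism rose, *ADH4* by 2.67, *DHRS3* by 2.57 and *DHRS4* by 1.37 (adjusted *p* = 0.0132 for *DHRS4*, limma). The scavenger receptor *CD36*, which takes up fatty acids, rose by 1.23 in H82 and by 1.15 in H146 (adjusted *p* = 0.00397 in H146). In H82 *DHRS3*, *CD36* and *NFIA* reached the filter only through the treated libraries. *ADH4* reached 1 TPM in only 1 untreated H82 library (1.06 TPM) and needed its treated libraries to pass. The lipid droplet gene *PLIN4* fell by 1.98 in H82, as did the lipase gene *MGLL* by 1.58. Both needed their untreated libraries to pass the filter, with treated ones at 1.67, 0.256 and 0.471 TPM for *PLIN4* and 1.31, 0.742 and 0.606 TPM for *MGLL*.

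In H146 the fatty acid transporter *SLC27A6* rose by 1.27 (adjusted *p* = 0.0058) and *GPAM*, which starts triglyceride synthesis, by 1.14 (adjusted *p* = 0.00467). The transporter *ABCC3*, which reached the filter only through the untreated libraries, fell by 1.84. The developmental factor *NFIB* rose from 14.4 ± 2.02 TPM (n = 3) to 35.7 ± 1.10 TPM (n = 4, adjusted *p* = 0.000182). In H82 *NFIA* rose from 0.307 ± 0.107 to 4.22 ± 0.519 TPM (n = 3 each).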
